A study of Mus musculus with 15 samples.

Results

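Interferon-responsive microglia were taken as the cells in which at least 3 of 8 interferon-induced genes (Ifit1, Ifit2, Ifit3, Isg15, Rsad2, Usp18, Irf7 and Oasl2) were each seen with at least 1 unique molecular identifier (UMI), the tag that marks a captured RNA molecule. They made up 1150 of 81584 cells from 12 mice, and the remaining 80434 cells of the same mice served as the comparison. All 12 were male C57BL/6J mice with the hTfR KI genotype, in which part of the human transferrin receptor sits in the mouse receptor gene, and all were 3.5 months old. Each received a single dose of 10 mg/kg of antibody. ATV:4D9 binds TREM2, a receptor of microglia, and its engineered Fc, called the antibody transport vehicle (ATV), attaches to the human transferrin receptor for transport into the brain. ATV:RSV is the control antibody on that vehicle. The mice fell into 4 groups of 3, 1 taken at day 1 after ATV:RSV and the others 7, 14 or 28 days after ATV:4D9, and each of the 3 processing batches held 1 mouse per group. There was no control at days 7, 14 or 28, so the 3 ATV:RSV mice were shared by all comparisons of days. Cells came from dissociated hemibrain (cortex and hippocampus per the labels) and were enriched with beads against CD45, a surface protein that microglia share with other leukocytes.

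Type I interferons bind a receptor made of IFNAR1 and IFNAR2. The kinases JAK1 and TYK2 then phosphorylate STAT proteins such as STAT2, which join IRF9 and bind a short element in the promoters of interferon-stimulated genes. These genes encode antiviral proteins, sensors of viral RNA and DNA, chemokines and the parts of MHC class I presentation, and several of them, such as Irf9 and Irf7, feed back on the pathway. Microglia make and answer type I interferon, and a sparse interferon-responsive state is a known part of the microglial population.

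The files held 707518630 UMIs in 102043 cells of 15 mice, and the 12 mice described here had 32341960 to 50730013 UMIs each. Of the 1150 responsive cells, 24 (2.09%) carried a barcode that also occurred in another library, against 2044 (2.54%) of the other cells. None of the responsive cells had the barcode of a responsive cell from the ATV:4D9 day 1 mice, the group in which 27.7% ± 0.994 (SD, n = 3) of the cells met the rule. In the other class 123 of 80434 cells (0.153%) did. With so low a share, finding none among 1150 responsive cells does not set the classes apart.

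The responsive share was small in all 12 mice and highest at day 7. In ATV:RSV mice it was 2.55% (exact 95% interval 2.19% to 2.95%, for counting error only), 0.692% and 1.14% of the cells of the mouse. At day 7 after ATV:4D9 it was 3.34%, 1.85% and 2.19%. At day 14 the values were 1.05%, 1.05% and 0.685%, and at day 28 they were 0.878%, 0.927% and 0.840%. The day 7 mice therefore lay above all 6 mice of days 14 and 28, while the ATV:RSV mice ran from near the lowest to the next-to-highest value and overlapped with each other group.

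The group means were 1.46% ± 0.970 (SD, n = 3) in ATV:RSV, 2.46% ± 0.778 at day 7, 0.928% ± 0.211 at day 14 and 0.882% ± 0.0436 at day 28. Over the 4 groups the share differed in an exact two-sided permutation of the labels within batches (p = 0.0278, where the smallest p the 13824 arrangements allow is 0.00174). This call was lost when any of 6 mice was left out, namely ATV:RSV replicate 1 (p = 0.0590 by the exact permutation), day 7 replicate 1 (0.177), day 14 replicate 2 (0.0851) or 3 (0.0764), and day 28 replicate 2 (0.0885) or 3 (0.0799). Against ATV:RSV the share at day 7 was 0.997 percentage points higher, at 0.786, 1.16 and 1.04 points within batches 1, 2 and 3. That difference did not pass an exact permutation of 3 mice against 3 (p = 0.3, adjusted over the 3 days 0.4), a test that cannot go below 0.1. Day 14 (-0.533 points, exact permutation p = 0.4) and day 28 (-0.579 points, p = 0.4) did not pass either, and their sign varied between batches. The ATV:RSV mouse with the high share decided these differences: without it the day 14 difference was 0.0118 points and the day 28 difference -0.0345 points, and the day 7 difference grew to 1.54 points.

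**Figure D1:**
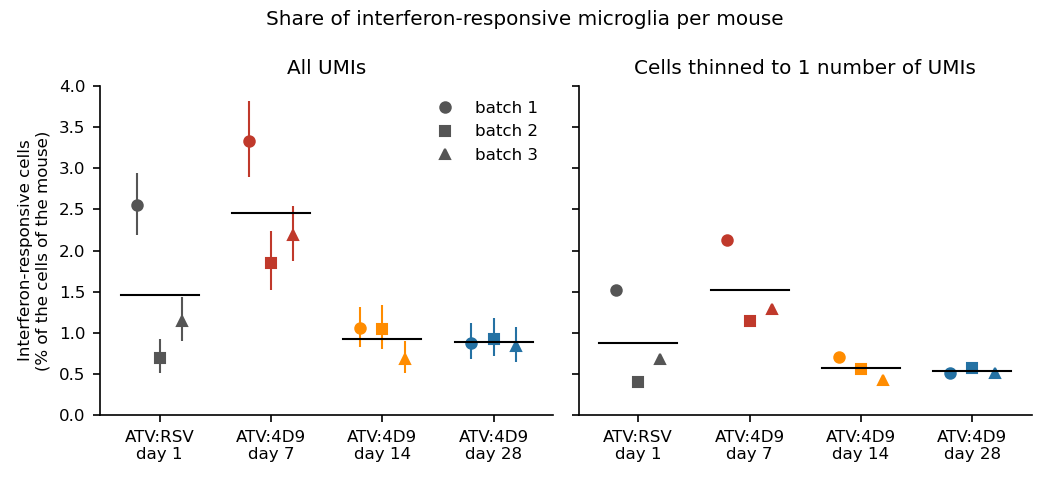
Share of interferon-responsive cells in each mouse, as a percentage of its cells, with all UMIs on the left and with every cell thinned to the same number of UMIs on the right; symbols mark batches, vertical lines are exact 95% intervals and horizontal lines are group means. The 3 day 7 mice lie at 1.85% to 3.34%, above all mice of days 14 and 28, and ATV:RSV replicate 1 lies at 2.55%.

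Depth per cell moved with the share within mice. The median UMIs per cell ranged over mice from 6108 to 8864 in responsive cells and from 4680 to 6106 in the others. When the cells of each mouse were split into quartiles by UMIs, the median share over mice went from 0.505% in the shallowest quartile through 0.717% and 1.26% to 1.72% in the deepest. With every cell reduced at random to 3281 UMIs, the mean shares were 0.870% ± 0.581 in ATV:RSV, 1.52% ± 0.533 at day 7, 0.567% ± 0.141 at day 14 and 0.535% ± 0.0365 at day 28 (SD, n = 3 each), and the 4 groups still differed by the exact permutation (p = 0.0330).

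Cells were found at every number of detected rule genes. No UMI of any of them was seen in 71442 cells, 7893 cells had a UMI of 1 gene and 1099 had UMIs of 2 genes, just outside the rule. Inside it, 400 cells had 3 genes, 237 had 4, 186 had 5, 115 had 6, 111 had 7 and 101 had all 8. Cells just outside and just inside the limit had close depths and differed in effector level: cells with 2 genes had a median of 7134 UMIs, and 38.4 UMIs of interferon-stimulated effector genes outside the rule per 10000 UMIs (median over mice), against 7186.5 and 53.6 in cells with 3. In cells with 6 to 8 genes the effectors reached 139 per 10000, and cells with none stood at 20.1. The 56 effector genes counted here include Ifit3b, which is not independent of the rule gene Ifit3. Each gene was missed in part of the cells, so whether the counts reflect a continuum or separate groups was not tested.

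The deposited clusters followed the number of detected rule genes. Of the responsive cells 45.4% lay in cluster 0, 11.1% in cluster 1 and 43.5% in cluster 2, against 58.3%, 40.6% and 1.15% of the other cells. The share in cluster 2 was 2.82% in cells with 2 rule genes, 8.75% with 3, 32.1% with 4, 52.2% with 5, 78.3% with 6, 92.8% with 7 and 98% with 8. Conversely, 35.1% of the 1426 cells of cluster 2 in these mice were responsive. The clusters were built on the same counts, so this is a description and not a test.

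**Figure D2:**
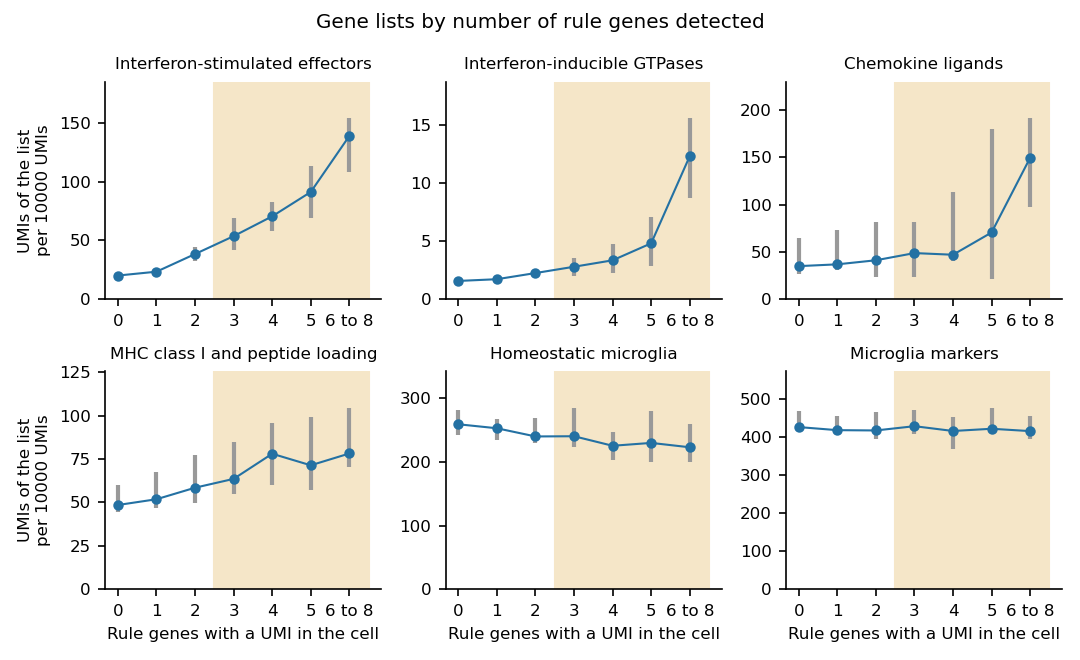
UMIs of 6 gene lists per 10000 UMIs of the cell, against the number of rule genes detected in the cell; dots are medians and bars the range over 12 mice, and the shaded span marks responsive cells. Effectors (Ifit3b included) rise from a median of 20.1 in cells with none to 139 in cells with 6 to 8, GTPases from 1.58 to 12.4, and homeostatic genes go from 259 to 223.

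The summed level of microglia markers was close in both classes, while single markers differed by small amounts. The summed level of 10 microglia markers (among them P2ry12, Tmem119, Cx3cr1 and C1qa) was 41710 to 47902 CPM (UMIs scaled to the total of the pool) over the 12 responsive pools and 42578 to 47157 over the pools of the other cells. Of the 10 markers 4 were called higher and 5 lower in the comparison of the classes given further on, with a median log2 fold change of -0.05. Over all genes 10.5% were called higher and 5.71% lower. No responsive cell had UMIs of 3 markers of T cells or of NK cells, which allows a share of up to 0.261% of cells with such UMIs (not of cells of those types). Of 8 T cell markers 4 had no UMI in them (Cd3e, Cd3d, Trac and Cd8a), and of 8 NK cell markers 5, among them Nkg7, Ncr1 and Gzmb. The rest had UMIs. The summed lists had medians of 1.46 CPM in responsive and 1.21 CPM in other pools for T cells, and 7.98 and 9.27 CPM for NK cells.

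Cells with several markers of another cell type were a larger share of the responsive cells. UMIs of at least 3 markers of another type were found in 106 (9.22%) of them, against 2675 (3.33%) of the other cells and 66 of 1150 (5.74%) other cells matched to the responsive ones by mouse and UMIs. Border macrophage markers occurred in 34 responsive cells (2.96%) and 19 matched cells (1.65%), oligodendrocyte markers in 32 and 15, astrocyte markers in 21 and 18, and endothelial markers in 19 and 14. The summed levels of these lists were close, with median pools of 173 CPM in responsive and 182 CPM in other cells for border macrophages, 111 and 92.7 for oligodendrocytes, 240 and 245 for astrocytes and 469 and 459 for endothelial cells. The monocyte list was higher in responsive pools, at a median of 19.1 CPM (10.1 to 57.2) against 8.71 CPM (7.03 to 15.9). Of the responsive cells 1 had UMIs of at least 3 of its markers. Stab1, the border macrophage marker that could be tested, was lower in responsive cells (-0.25). The oligodendrocyte marker Cnp and the B cell marker Ighm were called higher. The other tested markers of these types, Csf3r, Cd79b, Slc1a3, Mag, Mbp and Bsg, were not called. Without all cells of this kind the share still differed over the 4 groups (exact permutation p = 0.03125). The mitochondrial share of UMIs, a measure of cell quality, was 3.51% ± 0.399 in responsive cells and 3.43% ± 0.300 in the others (SD over 12 mice of the median of the cells), higher in 6 of 12 mice (exact sign-flip permutation, p = 0.320).

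The rule genes themselves are described without a test, since they chose the cells. Isg15 (a ubiquitin-like modifier) had a UMI in 82.0% of responsive cells and Ifit3 (an antiviral protein of the IFIT family) in 80.3%, whereas Rsad2, which encodes the antiviral enzyme viperin, had a UMI in 30.9%. Ifit2 was seen in 59.0%, Usp18, which removes ISG15 and restrains the receptor, in 58.1%, the transcription factor gene Irf7 in 57.0%, Oasl2 in 54.5% and Ifit1 in 43.8%. In the other cells Isg15 was seen in 5.83% and each of the other 7 genes in 0.320% to 1.75%. No cell type that lacks these genes was among the deposited cells, so the level that free RNA gives could not be set. Ifit3b, a neighbour of Ifit3 that is nearly the same in sequence, had a median of 113 CPM in responsive pools and 0.576 CPM in the others, and is not independent of the rule.

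The promoters of these genes were looked at for the element that complexes of STAT2 and IRF9 bind. A few are shown because genes with such a sequence both define the responsive cells and recur among the genes found higher in them. The letters searched were GAAA, any 2 bases, and GAAA again, on either strand, in the 250 bases before and 50 bases after the start of the RefSeq transcript (build GRCm38.p6), which 1131 of 32851 promoters (3.44%) held. Windows of 30 bases on the strand of the gene are given 5′ to 3′, with the match in capitals (a match on the opposite strand reads TTTC, 2 bases, TTTC), first for 3 rule genes and then for genes outside the rule that are described further on. Matches can overlap, as they do in Isg15 and Irgm1, for which 1 of them is shown.
Ifit3, chr19:34583397-34583426, plus strand: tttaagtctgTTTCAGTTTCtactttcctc
Isg15, chr4:156200871-156200900, minus strand: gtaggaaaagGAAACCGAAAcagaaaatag
Ifit1, chr19:34640794-34640823, plus strand: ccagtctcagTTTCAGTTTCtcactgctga
Stat2, chr10:128270266-128270295, plus strand: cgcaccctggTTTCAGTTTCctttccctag
Irgm1, chr11:48871425-48871454, minus strand: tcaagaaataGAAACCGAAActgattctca
Cxcl10, chr5:92349083-92349112, minus strand: tcacgctttgGAAAGTGAAActtacctcac
B2m, chr2:122147538-122147567, plus strand: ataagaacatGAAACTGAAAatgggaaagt

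Genes outside the rule were then compared between the responsive and the other cells of each mouse, to see what else the responsive cells expressed. UMIs were summed per mouse and class, which gave 368429 to 1909970 UMIs in the responsive pools and 31392856 to 49354446 in the others, and were tested with limma-voom with the mouse as a block. Of 6187 genes tested, 1002 (16.2%) were called at an adjusted p under 0.05, 649 higher in responsive cells (10.5%) and 353 lower (5.71%). Of the higher genes 97 passed 2-fold, and none of the lower ones did, the lowest called log2 fold change being -0.52. Without overlap between the 12 pools of each class, 147 genes (2.38%) were higher and 0 were lower. A further limit is that 305 genes did not pass the filter on low counts (17.1 CPM) in the other pools alone and were tested with the help of the responsive pools, which favours genes that are high there. Among the 5882 that passed in the other cells, 573 (9.74%) were higher and 345 (5.87%) lower. Scaling by library size alone shifted the split to 492 higher (7.95%) and 614 lower (9.92%), and moved the median over all tested genes from -0.00 to -0.04 on the log2 scale. With depth-matched other cells 409 (6.67%) were higher and 182 (2.97%) lower.

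Interferon-stimulated effectors were the group that stood out by size. The rule chose the cells on related interferon genes, so higher levels of other such genes were largely set in advance. The counts for effectors, and those for signalling, GTPase, chemokine and MHC class I genes below, are therefore a description. Leaving out Ifit3b, all 43 genes of the list that were tested were called higher, against 10.5% of all genes. Their median log2 fold change was 2.40 (all genes tested -0.00). All 24 that passed the filter in the other cells were also called higher (median 1.77), against 9.74% of all such genes. In responsive cells outside cluster 2, compared with other cells outside it, all 33 tested were higher too, with a median of 1.47 (background 3.45% higher and 0.652% lower). Counts outside cluster 2 and with depth-matched cells, here and below, were not split by whether a gene passed the filter in the other pools alone. Mx1 (chr16:97447035-97462907, minus strand), a dynamin-like GTPase that blocks virus replication, ranged from 59.5 to 111 CPM (median 90.4) in the responsive pools and from 1.27 to 2.99 CPM (2.05) in the others. Zbp1, a sensor of Z-form nucleic acid that can start cell death, ranged from 51.7 to 106 CPM (67.0) against 0.541 to 1.66 CPM (0.866). For both genes the lowest responsive pool exceeded the highest pool of the other cells, and the log2 fold changes were 5.47 ± 0.11 (SE) for Mx1 and 6.20 ± 0.15 for Zbp1. Of the effectors given by name here, Bst2 alone passed the filter in the other pools, so the values of the others are given as a description, with no p.

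Further effectors spanned a wide range of levels. Slfn5, a member of the Schlafen family, was at 166 to 253 CPM (median 198) in responsive and 2.14 to 5.84 CPM (3.25) in other pools, a log2 fold change of 5.86. Ifitm3, a membrane protein that stops viruses from entering the cytosol, was at 458 to 866 CPM (563) against 11.1 to 51.0 CPM (17.5), a log2 fold change of 4.55. The DNA sensor family genes Ifi207 (6.21), Ifi204 (4.88) and Ifi209 (4.27) lie side by side on chromosome 1 and resemble each other, so reads may be shared among them. Bst2, which encodes tetherin, a protein that holds budding virus at the membrane, had a smaller log2 fold change of 2.39 ± 0.053, from 161 CPM (median) in other pools to 879 CPM in responsive ones. Oas1a, another gene with close copies, reached 4.31, Rtp4 4.41, Isg20 4.20 and Ifi27l2a 3.45. Ifi44 was not tested, with 63 UMIs in responsive and 49 in other cells.

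The responsive cells also differed in the share of cells with a UMI, given here without a test. Rtp4 was seen in 75.7% of responsive cells, 6.78% of depth-matched and 4.77% of all other cells. For Ifitm3 the shares were 79.0%, 13.9% and 8.32%. In cells with 2 rule genes, outside the rule, Rtp4 was seen in 39.5% and Ifitm3 in 44.8%, between the classes.

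Within the pathway, several transcription factor and RNA sensor genes were higher, whereas the factors Irf3 and Irf5, the type I receptor genes and the kinase genes Jak1 and Tyk2 were not called. Of 26 sensing and signalling genes tested, 13 were higher and 1 lower (median log2 fold change 0.17), against 10.5% and 5.71% of all genes. Of the 22 that passed in the other cells 9 were higher and 1 lower (0.07), against 9.74% and 5.87%. Outside cluster 2, 5 of 20 were higher and 1 lower (0.08), against 3.45% and 0.652% of all genes. Stat2 was at 64.1 to 126 CPM (median 91.3) in responsive and 12.5 to 15.7 CPM (13.7) in other pools. The classes did not overlap, with a log2 fold change of 2.70 ± 0.066, given with no p because Stat2, like Dhx58 and Ifih1, did not pass the filter in the other pools. Irf9, its DNA-binding partner, was higher by 1.13. The RNA sensors Dhx58 (2.90), Ifih1 (2.30) and Ddx58 (2.14), which encode LGP2, MDA5 and RIG-I, were higher as well. Socs1, a feedback inhibitor of the kinases, had a log2 fold change of 1.07, and Irf1 had 0.89. The receptor genes Ifnar1 (0.01) and Ifnar2 (0.07), the kinase genes Jak1 (-0.09) and Tyk2 (0.04) and the adaptors Mavs (-0.00) and Tmem173, which encodes STING (-0.04), were not called, and Ifngr1, a chain of the type II interferon receptor, was lower (-0.26, in all 12 mice).

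All 8 interferon-inducible GTPases tested were higher (median 1.70), against 10.5% of all genes, as were the 3 that passed the filter in the other cells (9.74% of all such genes). These proteins act at the membranes of vacuoles that hold pathogens, and some members, such as Irgm1 and Igtp, restrain the others on host membranes. In the comparison with all other cells, Iigp1 had the highest log2 fold change of the named genes apart from Ifit3b and the rule genes. It was 7.78 ± 0.20, with 487 UMIs in the responsive and 112 in the other cells. Irgm1 was at 81.9 to 151 CPM (median 114) against 17.1 to 25.2 CPM (21.5), a log2 fold change of 2.46, and Gbp9 (1.80) and Igtp (1.74) were higher too. Iigp1, Irgm1 and Gbp9, and further on Ccl5, H2-Q7, Clec7a and Ddit4, likewise did not pass the filter in the other pools alone. Gbp2 fell below the filter and was not tested, with 416 UMIs in responsive cells and 1885 in the far larger pools of other cells. It had a UMI in 18.6% of responsive cells, 2.09% of depth-matched and 2.20% of all other cells.

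Of 9 chemokine ligands tested, 8 were higher (median 0.75), against 10.5% of all genes, and Ccl6 was not called (-0.13). With depth-matched other cells 8 were higher and 1 lower, against 6.67% and 2.97% of all genes in that fit. Ccl12, a ligand of CCR2, was at 1618 to 2772 CPM (median 2044) in responsive and 101 to 231 CPM (160) in other pools, with no overlap and a log2 fold change of 3.84 ± 0.073. Cxcl10, which draws CXCR3-bearing lymphocytes, was at 329 to 1248 CPM (839) against 38.2 to 121 CPM (47.7), a log2 fold change of 3.78 ± 0.12. Outside cluster 2 that of Cxcl10 was 1.03 and that of Ccl12 1.69. There 5 of 8 chemokine ligands were higher (median 0.25), against 3.45% of all genes. Cxcl10 was concentrated in few cells. Only 26.3% of responsive cells had a Cxcl10 UMI, and the 5 highest cells of a pool held from 36.3% of its UMIs (day 7 replicate 1) to 95.9% (ATV:RSV replicate 3). Ccl2 (1.69), Cxcl16 (0.75), Ccl4 (0.60), Ccl3 (0.36) and Ccl9 (0.34) were higher by less, with pools that overlapped for Ccl2, Cxcl16 and Ccl4.

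Ccl5, which draws T cells and monocytes, varied widely among mice. It ranged from 9.54 to 1438 CPM (median 79.9) in responsive pools and from 1.60 to 49.9 CPM (4.37) in the others, a log2 fold change of 3.57 ± 0.42. The highest value, of day 28 replicate 2, rested on a single cell with 678 of the 773 UMIs of that pool. That cell had 18523 UMIs, 4 of the rule genes, markers of another cell type and no UMI of Cd3e or Nkg7. Whether it was 1 cell or a doublet was not tested.

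MHC class I and its peptide loading genes were higher in the comparison with all other cells, by less than the effectors. All 18 tested were called (median 0.68), against 10.5% of all genes, as were all 17 that passed in the other cells. With depth-matched other cells 16 of 18 were higher (6.67% of all genes), and with library size alone 17 (7.95%). In cells outside cluster 2, 14 of 18 were higher (median 0.41), against 3.45% of all genes. B2m, the invariant light chain of class I, was at 1664 to 3031 CPM (median 2099) in responsive pools and 1282 to 1981 CPM (1469) in the others. The pools overlapped, but B2m was higher in responsive cells of all 12 mice, with a log2 fold change of 0.55 ± 0.048 (limma-voom adjusted p = 1.98e-09). The heavy chain genes H2-K1 (0.83) and H2-D1 (0.76) were also higher in 12 of 12 mice, and the peptide transporter gene Tap1 rose further (1.58), as did the immunoproteasome gene Psmb9 (0.89). H2-Q7 (1.90) and H2-Q4 (1.03) belong to a family of close copies and are uncertain as single genes. Of 3 MHC class II genes tested, Cd74, the invariant chain, was higher (1.72, in 11 of 12 mice) and H2-DMa and H2-DMb1 were not called. Few cells carried much of Cd74. The 5 highest cells held from 32.0% of the Cd74 UMIs of a responsive pool (ATV:RSV replicate 1) to 86.7% (ATV:RSV replicate 2). In ATV:RSV replicate 3 a single cell held 71 of 254.

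**Figure D3:**
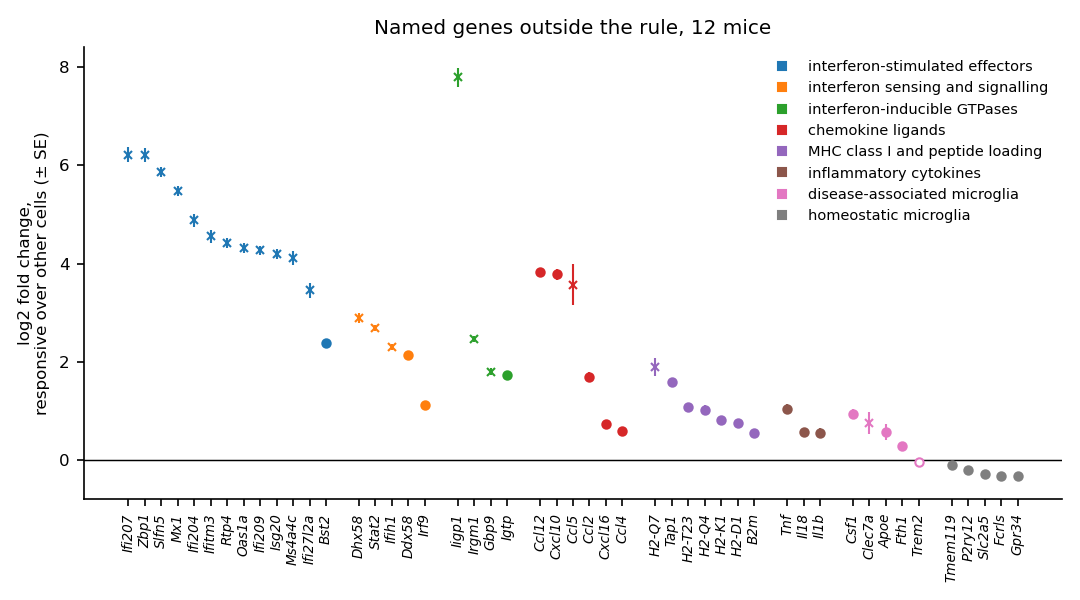
Log2 fold change of responsive over other cells for named genes outside the rule, without Ifit3b (points, ± SE, 12 mice), grouped by list; filled circles were called by limma-voom (adjusted p under 0.05), the open circle was not, and crosses are genes that did not pass the filter in the other pools alone and are shown with no test. Effectors reach 6.21 and MHC class I genes lie at 0.55 to 1.90, while homeostatic genes lie just below 0.

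Genes of the microglial resting state were lower by a small amount. All 14 homeostatic genes tested were called lower, with a median log2 fold change of -0.11, against 5.71% of all genes. With depth-matched other cells 6 were called lower (median -0.09), against 2.97% of all genes. In cells outside cluster 2, 5 were (-0.07), against 0.652%. Gpr34, a receptor for lysophosphatidylserine, was at 1210 to 1616 CPM (median 1307) in responsive and 1513 to 1830 CPM (1696) in other pools, lower in all 12 mice (-0.32 ± 0.028). P2ry12, the ADP receptor of surveying microglia, was at 1430 to 2102 CPM (1792) against 1763 to 2243 CPM (2088), lower in 10 of 12 mice (-0.20 ± 0.031). Tmem119 was lower by 0.10 on the log2 scale in the comparison with all other cells, and was not called against depth-matched cells (-0.03). The microglia markers C1qb (0.10) and Aif1 (0.21) were higher, and Trem2, the target of ATV:4D9, was not called (-0.03, 2708 against 2732 CPM in the median pools). With library size alone Trem2 was called lower (-0.07).

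Of 14 disease-associated microglia genes tested, 7 were higher and 2 (Ctsd and Cd68, of the lysosome) lower, with a median of 0.08, against 10.5% higher and 5.71% lower over all genes. With depth-matched other cells 4 of 15 were higher and 0 lower (6.67% and 2.97% of all genes), so that Ctsd and Cd68 were not called. Outside cluster 2, 2 of 13 were higher and 1 lower (3.45% and 0.652% of all genes). Csf1, the growth factor of microglia, was at 54.6 to 130 CPM (median 84.7) in responsive and 37.7 to 72.9 CPM (49.2) in other pools, higher in all 12 mice (0.95 ± 0.098). Apoe was called (0.57 ± 0.16) but was higher in 7 of 12 mice only, and was not called against depth-matched cells (0.32). A single responsive cell held 891 of the 1470 Apoe UMIs of ATV:RSV replicate 3, and another 521 of 1244 in day 28 replicate 2. Clec7a had a log2 fold change of 0.76 and was higher in 8 mice. Fth1, the ferritin heavy chain, was higher in 12 mice (0.29). Axl was below the filter and not tested, with 348 UMIs in responsive cells and 2358 in the far larger pools of other cells. It had a UMI in 19.2% of responsive cells, 4.61% of depth-matched and 2.40% of all other cells.

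Of 7 inflammatory cytokine and feedback genes, 5 were higher and Tgfb1 was lower (-0.10), against 10.5% and 5.71% of all genes. With depth-matched other cells 3 were higher and 1 lower (6.67% and 2.97% of all genes), and outside cluster 2, 1 was higher (3.45% of all genes). Tnf was at 135 to 468 CPM (median 263) in responsive and 98.1 to 227 CPM (141) in other pools, higher in 11 of 12 mice (1.05 ± 0.097). Il18 (0.58, 12 mice) and Il1b (0.55, 10 mice) were also higher. In cells outside cluster 2, Tnf (0.30) and Il1b (0.43) were not called. Of 17 immediate early genes, which mark stress of dissociation among other things, Klf2 was higher and Jund lower, and Fos was not called (0.01). With depth-matched other cells 1 of the 17 was higher and 5 were lower (median -0.11), against 6.67% and 2.97% of all genes in that fit (median -0.01). Mki67, a marker of proliferation, had a UMI in 8 of 1150 responsive cells (0.696%), in 0.261% of depth-matched cells and in 0.0995% of all others, too few UMIs to test. In ATV:RSV replicates 1 and 2 it had 30 and 29 UMIs in 3 and 2 responsive cells, and at most 7 in the responsive cells of any other mouse. The lowest log2 fold changes among called genes of the naming rule were Ddit4 (-0.50), Tmem204 (-0.48), Kcnk12 (-0.48), Gab1 (-0.47) and Dnajc18 (-0.47).

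Among the interferon genes themselves, Ifnb1 was the only ligand with UMIs in responsive cells. It was looked at after its values had been seen and was not tested. Of 21 type I, II and III interferon genes in the files, 20 had no UMI in the 1150 cells, which allows a share of cells with a UMI of up to 0.261% for each and sets no limit on cells that express them. Ifnb1 had 86 UMIs in 14 responsive cells (1.22%, exact 95% interval 0.667% to 2.03%, for counting error over the pooled cells only), against 93 UMIs in 55 other cells (0.0684%, 0.0515% to 0.0890%) and 2 UMIs in 2 of 1150 depth-matched cells. These cells came from 5 of 12 mice, with 4, 5 and 1 at day 7, 3 in ATV:RSV replicate 1 and 1 in day 28 replicate 1. The highest cell had 20 Ifnb1 UMIs, 6 cells had at least 5, and 13 of the 14 lay in cluster 2. Of these cells 11 of 14 had a UMI of the chemokine gene Ccl5, against 15.1% of the remaining responsive cells, and 13 of 14 had one of the cytokine gene Tnf, against 47.9%. For Cxcl10 the shares were 8 of 14 and 25.9%, for Ccl4 14 of 14 and 76.8%, and for Ccl12 14 of 14 and 83.6%. The remaining cells were not matched by depth or by number of rule genes. In all responsive cells with 6 to 8 rule genes, Ccl5 was seen in 21.4% and Cxcl10 in 46.5%.

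The next question was whether responsive cells of treated mice differed from those of control mice. At day 7, 64 of 6789 genes (0.943%) were called against ATV:RSV within the responsive cells, 56 higher (0.825%) and 8 lower (0.118%), and 100 with the batch as a block. In responsive cells with at least 4 rule genes 12 were called. Of the 64, 45 encode cytosolic ribosomal proteins, and all 45 were higher. They were 45 of 83 such genes tested, a group picked from the calls themselves, so the count is a description. In the other cells 77 of the 83 were called higher at day 7, with a median log2 fold change of 0.502, against 0.382 in responsive cells. Rps14 was at 3241, 3306 and 3008 CPM in the day 7 mice and at 2405, 1947 and 2094 CPM in the ATV:RSV mice, with no overlap (0.54 ± 0.076). In the other cells the change was alike, at 0.57 ± 0.056, and the difference between the classes was not called.

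Lag3, an inhibitory receptor of the immunoglobulin family, was the highest named gene at day 7. It was at 586, 649 and 695 CPM in responsive cells of the day 7 mice and at 369, 188 and 306 CPM in those of ATV:RSV mice. All 3 treated values exceeded the controls, with a log2 fold change of 1.10 ± 0.14 (limma-voom adjusted p = 0.000207), close to the 1.08 ± 0.078 of the other cells. Uqcrh, a subunit of respiratory complex III, was higher (0.57 ± 0.096), again as in the other cells (0.52). Myc, a driver of growth, was at 20.3, 22.4 and 15 CPM against 44.1, 32.8 and 37.4 CPM, lower by 1.09 on the log2 scale (adjusted p = 0.00587), a call lost in 6 of 14 alternatives. Malat1, a nuclear RNA, was lower as well (-0.37, and -0.38 in the other cells). Slc25a45 (0.67) and Pcbd2 (-0.998) were called but lost in 11 of 14 and 7 of 14 alternatives, and had values of 0.05 and -0.07 in the other cells, while the difference between the classes was called for neither (limma-voom adjusted p = 0.203 and 0.223).

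**Figure D4:**
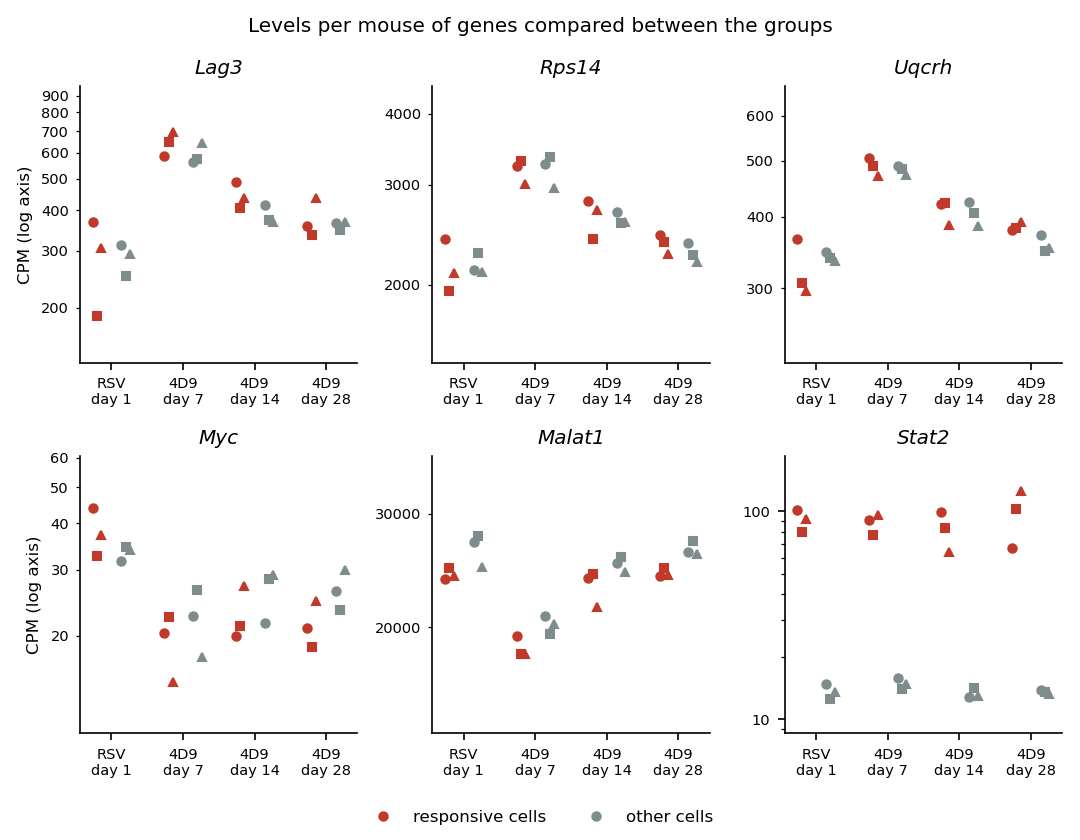
CPM per mouse on a log axis of 6 genes in responsive (red) and other (gray) cells of the 4 groups, with symbols for the 3 batches as in the plot of shares. Lag3, Rps14 and Uqcrh are higher and Myc and Malat1 lower at day 7 than in ATV:RSV in both classes, whereas Stat2 in responsive cells overlaps across all groups.

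Interferon genes outside the rule were not called at day 7 within the responsive cells, which the rule selects on related genes. Of 52 effectors tested, 0 were called (median log2 fold change -0.02), and 0 of 10 GTPases, 0 of 11 chemokines and 0 of 20 MHC class I genes. With 0.943% of all genes called, counts of 0 in lists of this size are near the background. Ifitm3 and Cxcl10 were called in 2 of 14 alternatives each and Ifi204 in 1. In the other cells 15 of 49 effectors were higher (median 0.24) and 0 lower. The 49 were taken from the genes tested in responsive cells, and of 6785 such genes 363 were higher and 106 lower. Over all 13894 genes tested in the other cells 3.38% were higher and 1.21% lower. Stat2, for example, was at 101, 79.2 and 91.7 CPM in responsive cells of ATV:RSV mice and 90.9, 77.3 and 96.5 CPM at day 7. At day 14 in the other cells, 0 of 49 effectors were called, where 50 of the 6785 genes were higher and 1 lower (0.381% and 0.0216% of the 13894). At day 14 and at day 28, 0 genes (0.0%) were called within the responsive cells by limma-voom, edgeR or DESeq2, where 358 and 309 genes had an unadjusted p under 0.05 in limma-voom. The batch block gave 1 call at day 14. Lag3 had log2 fold changes of 0.58 ± 0.16 at day 14 and 0.32 ± 0.16 at day 28 and passed at neither. Pools at these days held 49 to 76 cells per mouse, against 105 to 201 at day 7 and 179, 47 and 74 in the ATV:RSV mice that enter all 3 comparisons.

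Whether the gap between the classes differed between the groups was tested directly, and 7 of 6187 genes (0.113%) were called: Ifi204, Ifitm3, H2-Q7, Ccl5, H2-D1, Ifi27l2a and Slfn2. Of these, H2-D1 and Slfn2 were among the 5882 genes that passed the filter in the other pools alone (2 called, 0.0340%), and the other 5 were not. The rule chose the responsive cells on related interferon genes in every group. For 6 of them, all but H2-D1, the gap was smallest at day 7, and for all 7 it was larger in ATV:RSV than at day 7. For Ifitm3 the log2 fold change of responsive over other cells was 4.99 in ATV:RSV, 3.92 at day 7, 5.04 at day 14 and 5.11 at day 28. The level in other cells moved most. It was 23, 11.1 and 15.3 CPM in ATV:RSV and 46.8, 48.1 and 51.0 CPM at day 7, while the responsive cells had 658, 532 and 458 CPM and then 660, 687 and 866 CPM.

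Ifi204 followed the same course, with gaps of 5.47, 4.18, 5.14 and 5.53. Its level in other cells was 6.52, 2.90 and 4.68 CPM in ATV:RSV and 16.2, 14.2 and 14.7 CPM at day 7, with no overlap. In responsive cells it was 278, 150 and 205 CPM and then 287, 278 and 260 CPM, which overlapped. H2-D1 had gaps of 1.34, 0.51, 0.47 and 0.76, and rested on ATV:RSV replicate 1, at 1817 CPM in responsive cells against 827 and 1104 CPM in replicates 2 and 3. Without that mouse the differences of H2-D1 (adjusted p = 0.509) and Ccl5 (0.259) were not called in limma-voom. With depth-matched other cells those of Ifi204 (0.0565), Ifitm3 (0.172), Ifi27l2a (0.750) and Slfn2 (0.911) were not called in limma-voom.

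**Figure D5:**
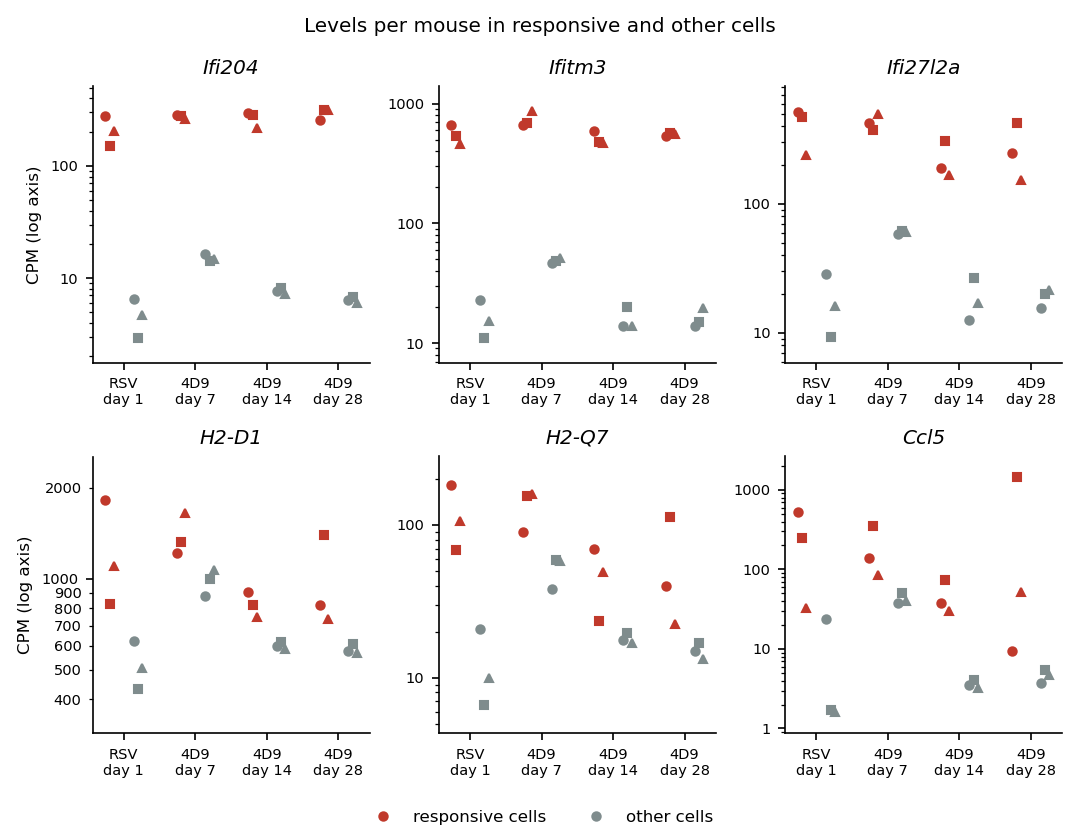
CPM per mouse on a log axis of 6 of the 7 genes whose gap between responsive (red) and other (gray) cells differed between the groups, with symbols for the 3 batches. In other cells all 6 are highest at day 7, where Ifitm3 lies at 46.8 to 51.0 CPM against 11.1 to 23 CPM in ATV:RSV, and the Ccl5 value of 1438 CPM is the pool held by 1 cell.

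The promoter element described above was then counted over the genes compared. It was found in 31 of 75 promoters (41.3%) of genes called at least 2-fold higher, in 36 of 443 (8.13%) of those called higher by less, in 9 of 260 (3.46%) of those called lower and in 213 of 4987 (4.27%) of all tested genes with a promoter sequence. Some genes of the 2-fold group were tested only with the help of the responsive pools, and the counts were not split by that. Among all genes called higher, 573 of 649 passed the filter in the other pools alone. The cells were also chosen on related interferon genes, so the shares are a description. By list, with genes that were not tested included, it was found in 9 of 10 GTPase, 19 of 45 effector, 5 of 24 sensing and signalling, 4 of 18 MHC class I, 2 of 8 chemokine and 0 of 9 homeostatic promoters. Among the rule genes 4 of 7 held it. A match to these letters is a description of the window and says nothing of binding in these cells.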

How the data were processed

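Single-cell RNA sequencing libraries were made from CD45 bead-enriched hemibrain cells of 15 mice with a 3′ UMI kit, of which 12 mice are described here. The labels mention a further control animal, not analysed here. The authors mapped reads to mm10 with Cell Ranger (version 4.0.0 per the submitters' processing notes, while the methods of the study name later versions), filtered and clustered cells in Seurat, and deposited raw UMI counts per gene and cell, with a cluster number, the mouse and the percent of mitochondrial UMIs of each cell. Filters on cells and removal of doublets are not given in the sources used here, and no doublet caller was run. Cells with markers of another type, and the 5% with most UMIs, were left out as alternatives.

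The rule was applied to the deposited counts. Members, gene lists and tests were chosen with earlier results of these data known. Shares were tested by exact two-sided permutation. For depth, cells were thinned to 3281 UMIs (the 10th percentile, leaving out 5.65% to 16.0% of the cells of a mouse in the 12 mice), or each responsive cell was matched to an other cell of its mouse by UMIs. The mitochondrial percent was compared by exact sign flips.

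UMIs were summed per mouse and class and compared by limma-voom in R 4.3.3 (edgeR 4.0.16, limma 3.58.1) after TMM scaling, with Benjamini-Hochberg adjustment under 0.05 over all genes tested, rule genes left out. For responsive against other cells filterByExpr's cutoff was set at 17.1 CPM, the value of 10 UMIs in the median responsive pool, because its default (0.601 CPM) follows the deeper pools. Days were compared in the 12 responsive pools alone. CPM values in the text come from the 24 pools together. edgeR quasi-likelihood, DESeq2 1.42.0, other scaling, filters, rule limits and each mouse left out were alternatives, and scripts were tested on simulated data.

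Genes named were a fixed list of 23, the 10 highest and 5 lowest called genes with at least 10 UMIs in responsive cells, on 1 side in at least 10 of 12 mice and with a symbol that is not of a predicted gene, up to 3 further called genes per list, and at each day the 3 highest and 3 lowest without overlap. Rps14, Malat1, Ifnb1 and the ribosomal protein list were added after their values were seen, and a few genes the rule names are not reported here.

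The labels state that each batch held all conditions, so batch numbers pair mice. Deviations from group means of same-batch responsive pools had a mean correlation across genes of 0.0280 over 18 pairs, ranging from -0.0568 to 0.106, against -0.0139 over the 36 pairs from different batches. GENCODE M21 gave gene positions (mm10, counted from 1) and matched 31454 of 32372 symbols, and promoters are from RefSeq (GRCm38.p6), with 4987 of 6187 tested genes matched.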

Additional observations from a re-analysis of the deposited data

Results flagged for a closer look

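For 7 genes the difference between responsive and other cells itself differed between the 4 groups in the moderated F test of limma-voom (mouse block). The adjusted p was 2.93e-06 for Ifi204, 0.000332 for Ifitm3, 0.000453 for H2-Q7, 0.00650 for Ccl5 and 0.0104 for each of H2-D1, Ifi27l2a and Slfn2. Of the 7, H2-D1 and Slfn2 passed the filter on low counts in the other pools alone, whereas the other 5 were tested with the help of the responsive pools. Over 16 alternatives Ifi204 was called in 15 (adjusted p 1.53e-08 to 0.0565), Ifitm3 in 14 (highest 0.183), H2-Q7 in 15 (0.183), Ccl5 in 13 (0.259), H2-D1 in 12 (0.509), Ifi27l2a in 12 (0.750) and Slfn2 in 12 (0.911). The gap was smaller at day 7 than in ATV:RSV for all 7. For each of them the other cells of all 3 day 7 mice lay above those of all 9 mice of the remaining groups. That is a description, since the test that picked the genes responds to such a shift. Over all genes, 470 of 13894 (3.38%) were called higher in the other cells at day 7 than in ATV:RSV. The part of Ccl5-rich single cells in the Ccl5 result was not tested.

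Outside the 12 mice, the rule was met by a mean of 27.7% of the cells in the 3 mice sampled at day 1 after ATV:4D9 (27.7%, 26.8% and 28.8%), against 1.46% in the ATV:RSV mice of that day. After thinning the values were 16.5% ± 0.784 and 0.870% ± 0.581 (SD, n = 3).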

How the results depend on the processing

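The difference in share over the 4 groups kept its side of the threshold with thinned cells, with 2 or 4 rule genes required, without cells with markers of other types and with no replicate block (p 0.0330, 0.0347, 0.0434, 0.03125 and 0.0464 by permutation), and, in alternatives chosen after seeing the data, without the 5% of cells with most UMIs (0.0260) and without the other-class cells that carried the barcode of a responsive ATV:4D9 day 1 cell (0.0278, no responsive cell being removed). Leaving out each mouse gave p from 0.0191 to 0.177. Without single mice, the day 7 difference ranged from 0.558 to 1.54 points (0.653 with thinned cells and 1.74 with 2 rule genes required), that of day 14 from -0.917 to 0.0118, where the sign turned without ATV:RSV replicate 1, and that of day 28 from -0.964 to -0.0345. With the replicate block (sign flips within batches, smallest p 0.25) no day passed. The mitochondrial difference of 0.0702 points became -0.0873 with depth-matched cells and ranged from 0.0378 to 0.101 without single mice.

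For responsive against other cells, 1002 calls became 12487 with no filter on low counts, 591 with depth-matched cells, 634 with no mouse block (no replicate block) and 195 without cluster 2 cells (chosen after seeing the data), and 808 to 1017 without single mice. Of 1603 values of 66 named genes under these alternatives, 1557 kept their call, 44 lost it, 2 gained it and 0 reversed. The 66 include Ifit3b, genes that did not pass the filter in the other pools alone and genes named for their large fold changes. The count of kept calls is therefore a description. At day 7, 64 calls became 100 with the batch as a replicate block and 12 with at least 4 rule genes, and 38 to 106 without single mice (106 without ATV:RSV replicate 1). At day 14 the replicate block gave 1 call and leaving out mice gave 0 to 0, and at day 28 both gave 0. The block changed no other call. The difference of classes between groups was called for 11 genes with library size alone, 1 with no filter and 3 to 17 without single mice (3 and 4 when day 7 replicates 1 and 2 were dropped, 17 and 14 for ATV:RSV replicates 2 and 3, 13 and 12 for day 28 replicates 2 and 3). The cause of these shifts was not tested. Responsive pools held 368429 to 1909970 UMIs, and the shallowest was that of ATV:RSV replicate 2.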
